A study of Homo sapiens with 12 samples.

Results

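The locus described here is the MYC gene with the gene-poor stretch of 8q24 around it, chr8:127500000-130000000 in GRCh37. Every peak of the 12 deposited ATAC-seq lists that overlapped this window was taken, and peaks sharing at least 1 bp were merged across libraries. This gave 395 regions, of 187088 in the whole genome. Within the window, peaks were taken by position alone, with no measured value. MYC itself spans chr8:128748315-128753680, so the window reaches 1248 kb before the MYC start and 1252 kb after it. Positions below are given as kb from the MYC start to the nearer edge of a region, negative before the start.

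ATAC-seq inserts sequencing adapters into open DNA with a transposase, and a peak marks a stretch where insertions pile up. The cells were G401, an established rhabdoid tumour line whose labelled genotype is SMARCB1(-/-), a loss shared by all groups. Doxycycline for 24 h induced either GFP, the control protein, or SMARCB1, a core member of SWI/SNF, a family of complexes that remodel chromatin. Over the same time the cells received DMSO, the vehicle, or dBRD9-A, a degrader of BRD9, which is a subunit of the non-canonical SWI/SNF complex. The 4 groups were thus GFP DMSO, GFP dBRD9-A, SMARCB1 DMSO and SMARCB1 dBRD9-A, each with 3 libraries. All came from 1 cell line, and the labels do not say whether replicates were separate cultures, so p-values measure only the spread between these libraries, which may be technical. The lists hold no measure of SMARCB1 or BRD9 protein, so induction and degradation were not checked here.

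MYC encodes a transcription factor that drives growth and division in many cancers. Its gene lies almost alone among long non-coding RNA genes, and much of its control is known to come from distant enhancers on either side, different ones in different cell types. SWI/SNF complexes open chromatin at enhancers, and SMARCB1 is known to be needed for much of this activity in rhabdoid tumour cells. The RefSeq gene table of GRCh38.p14 was used for names and order only. Its order around MYC runs from LRATD2 past POU5F1B, a retrogene, to MYC, and on past PVT1 to GSDMC. The ends of the window were not placed in this order, so genes named here may lie outside the window. Of the 16 genes listed between LRATD2 and MYC, 1 is protein-coding (POU5F1B) and 12 are long non-coding RNAs. The 21 genes between MYC and GSDMC include no protein-coding gene, 11 long non-coding RNAs, among them PVT1, and 6 miRNA genes. No GRCh37 annotation was used, so no region other than those at MYC is placed in a gene.

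The lists held 33428 to 96572 peaks. Read totals were not analysed here. Depth was read from the background pileup, the number of fragments expected over any position by chance. It was 0.0517 ± 0.0171 in GFP libraries and 0.0827 ± 0.0217 in SMARCB1 libraries (SD, n = 6 each), 1.60 times higher in the latter. A deeper library yields more weak peaks, so values from lists thinned to equal background pileup are given beside the peak numbers. Absence of a peak may reflect low depth as well as closed chromatin.

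SMARCB1 induction was accompanied by many more peaks around MYC. The GFP DMSO libraries had 59, 44 and 54 peaks in the window, and the GFP dBRD9-A libraries 42, 40 and 61. The SMARCB1 DMSO libraries had 175, 200 and 203 peaks, and the SMARCB1 dBRD9-A libraries 188, 149 and 213. The lowest SMARCB1 library, with 149, was well above the highest GFP library, with 61. The means were 50 ± 9.14 in GFP and 188 ± 23.2 in SMARCB1 libraries (SD, n = 6 each), a ratio of 3.76. The difference of 138 peaks, averaged over the treatments, had a two-sided exact permutation p of 0.005, the smallest possible here, and 0.0169 after Benjamini-Hochberg adjustment over 27 tests. Several of the 27 tests measure the same window peaks and share this smallest p, so the adjusted p leans on related tests. A bulk library does not tell a region open in more cells from a region more open in each cell.

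At equal background pileup the means were 45.2 ± 4.12 and 142 ± 5.01 peaks (SD, n = 6 each), a ratio of 3.13. With every list shortened to the length of the shortest by peak p, they were 41.8 ± 4.83 and 75.7 ± 6.89 (SD, n = 6 each), a ratio of 1.81. The ratio was thus smaller with background pileup or list length evened out. Read totals were not matched. The geometric mean summit pileup over regions found in all 12 lists, also given by the lists, ranged from 12.8 to 23.2 fragments in GFP and from 12.9 to 20.5 in SMARCB1 libraries.

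The window also took a larger share of each list after SMARCB1 induction, so the rise exceeded that of the genome's peaks in general. The shares were 0.135%, 0.125% and 0.152% in GFP DMSO and 0.126%, 0.113% and 0.122% in GFP dBRD9-A. They were 0.228%, 0.222% and 0.236% in SMARCB1 DMSO and 0.213%, 0.209% and 0.221% in SMARCB1 dBRD9-A. Again no GFP library reached any SMARCB1 library. The mean share rose from 0.129% ± 0.0133 to 0.222% ± 0.00979 (SD, n = 6 each), a ratio of 1.72 (exact permutation p 0.005, adjusted p 0.0169). The ratio was 1.82 at equal background pileup. The rest of chromosome 8 went from 4.38% ± 0.118 to 4.91% ± 0.0384 of a list (SD, n = 6 each), a ratio of 1.12. Set against the rest of its own chromosome, the window held 2.94 ± 0.292 peaks per 100 in GFP and 4.51 ± 0.215 in SMARCB1 libraries (SD, n = 6 each). That difference of 1.57 also had an exact permutation p of 0.005 and an adjusted p of 0.0169, with no overlap between the inductions.

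**Figure D1:**
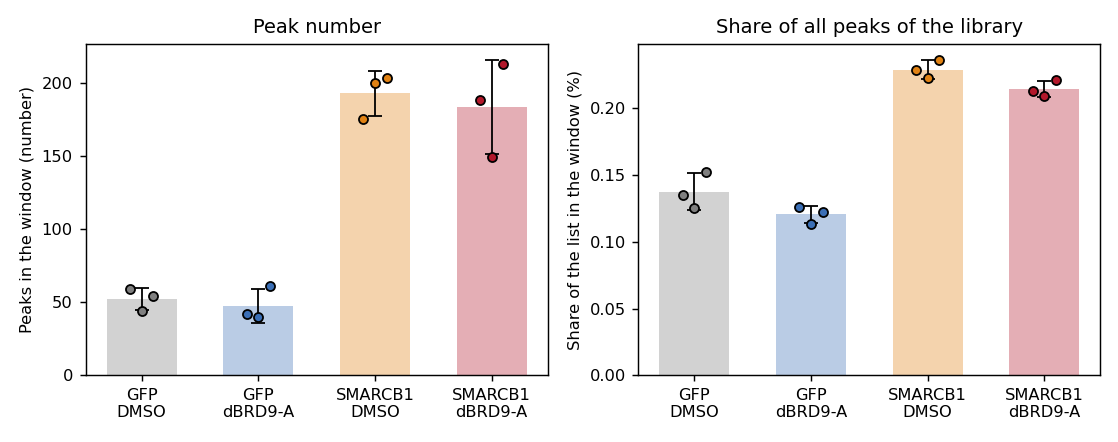
Peaks in the window (left, number) and their share of all peaks of a library (right, %). Bars give the group mean, whiskers the SD over 3 libraries and points the libraries; the SMARCB1 libraries lie at 149 peaks or more and the GFP libraries at 61 or fewer.

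Covered sequence rose with the number of peaks, from 9.52 ± 1.95 kb to 35.1 ± 4.90 kb of the 2.50 Mb window (SD, n = 6 each; exact permutation p 0.005, adjusted p 0.0169). Single peaks were not clearly wider. The median peak width in the window was 23.9 bp larger in SMARCB1 libraries, with an exact permutation p of 0.035 and an adjusted p of 0.0859.

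Both flanks of MYC gained peaks. Peaks before the MYC start numbered 23.2 ± 4.67 with GFP and 77.7 ± 11.9 with SMARCB1 (SD, n = 6 each), a ratio of 3.35. Peaks after it numbered 25.8 ± 7.68 and 109 ± 13.1 (SD, n = 6 each), a ratio of 4.23. Each difference had an exact permutation p of 0.005 and an adjusted p of 0.0169. Whether the ratios differ between the flanks was not tested.

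In GFP cells the peaks were bunched at the ends of the window and near MYC. In 10 bins of 250 kb, the outermost bins held means of 16.0 and 11.7 GFP peaks, and the bin reaching from just after the MYC start to 252 kb held 10. The 4 bins between -748 and -248 kb and between 502 and 1002 kb held only 0.333 to 1.17 GFP peaks each. Those same bins held 9.17 to 18.3 peaks in SMARCB1 libraries. In SMARCB1 libraries the bin with the most peaks was that from just after the MYC start to 252 kb. It held 35.7 ± 5.57 peaks (SD, n = 6) against 10 ± 4.24 in GFP cells (SD, n = 6), where both outermost bins held more. In the outermost bins the SMARCB1 means of 25.8 and 18.3 were nearest to the GFP means in relative terms.

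**Figure D2:**
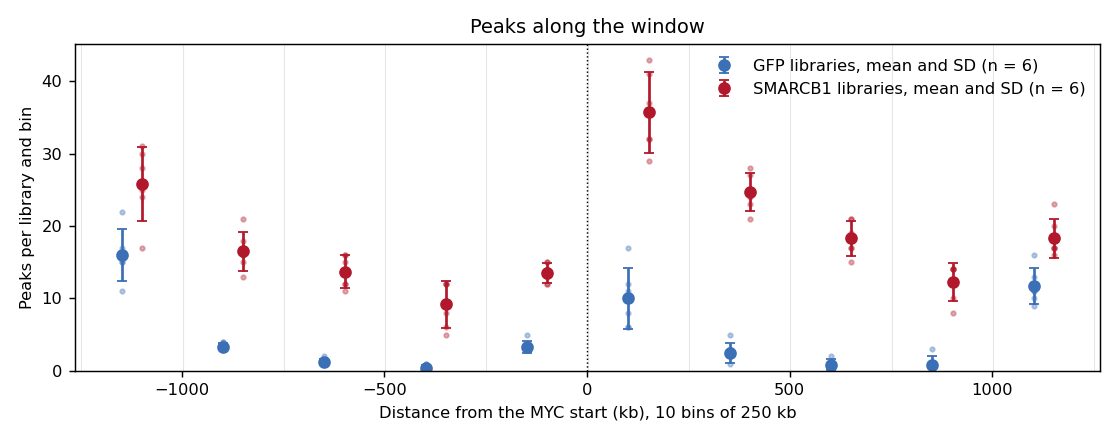
Peaks per library in 10 bins of 250 kb (y axis) against distance from the MYC start (x axis, kb). Large points and whiskers give the mean and SD of 6 libraries, small points the libraries; GFP means lie between 0.333 and 16.0 and SMARCB1 means between 9.17 and 35.7.

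Long stretches without a peak in GFP cells were dotted with peaks in SMARCB1 cells. The longest stretch without a peak measured 526, 533 and 527 kb in GFP DMSO and 741, 527 and 384 kb in GFP dBRD9-A. In SMARCB1 DMSO it measured 117, 67.8 and 84.3 kb, and in SMARCB1 dBRD9-A 77.8, 111 and 70.0 kb. Each GFP value exceeded each SMARCB1 value. The means were 540 ± 114 and 87.9 ± 20.9 kb (SD, n = 6 each; exact permutation p 0.005, adjusted p 0.0169). This measure falls as peak number rises, so it is not separate evidence. Before MYC, no region was common to all 12 libraries from -859 to -2.02 kb, a stretch of 857 kb. That stretch held 90 regions, of which 19 had a peak in all 6 SMARCB1 libraries and in no GFP library. After MYC, the longest stretch without a region shared by all 6 GFP libraries ran 741 kb from 373 to 1114 kb. It held 96 regions, of which 17 had a peak in all 6 SMARCB1 libraries and in no GFP library. Such regions made up 12.9% of all merged regions of the window and 7.29% of those of the genome. Both stretches were picked for lacking shared regions, which favours such regions, so these counts are descriptions. The longest stretch without a peak in any GFP library ran 252 kb, from -335 to -83.2 kb. It was picked for that lack, so its 22 regions could have peaks in SMARCB1 libraries only. Of the 22, 2 had a peak in all 6 SMARCB1 libraries.

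**Figure D3:**
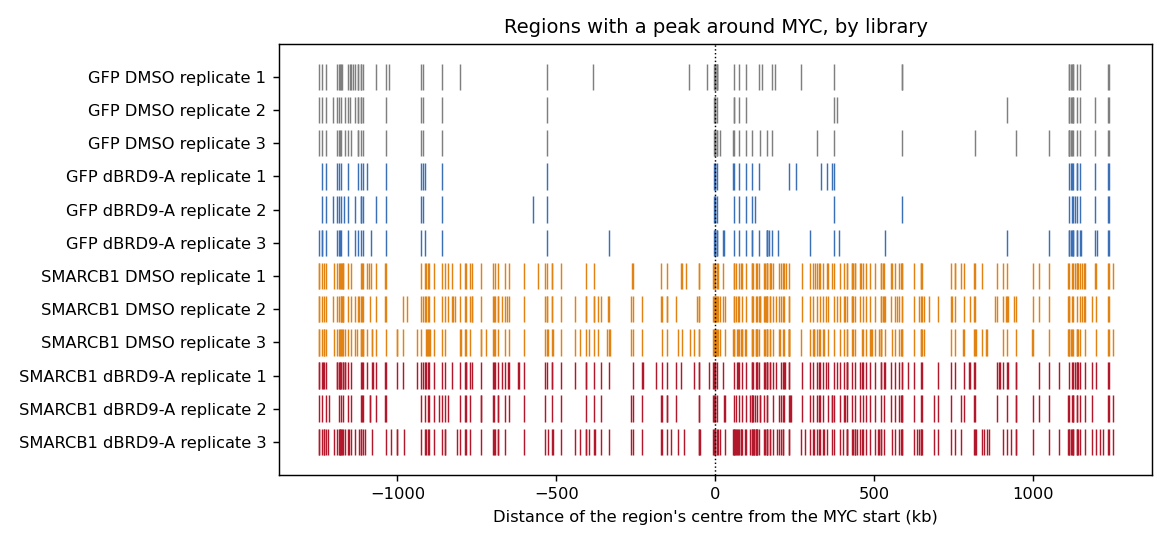
Regions with a peak in each of the 12 libraries (rows) by distance of the region's centre from the MYC start (x axis, kb; dotted line, MYC start). Each tick is 1 region; the GFP rows carry 39 to 59 ticks, the SMARCB1 rows 146 to 211.

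The 395 regions differed in how many libraries shared them. A peak in 1 library only was found for 158 regions (40.0%, against 41.0% genome-wide). Another 166 (42.0%, against 30.9%) had peaks in at least 2 libraries, all of them SMARCB1 libraries, and 7 (1.77%, against 1.93%) in at least 2 libraries, all GFP. Both inductions shared 40 regions (10.1%, against 16.5%) without reaching all 12 libraries, and 24 regions (6.08%, against 9.68%) had a peak in all 12. At least 1 GFP library had a peak in 101 regions (25.6%, against 37.7%), and at least 1 SMARCB1 library in 358 (90.6%, against 88.5%). These shares are descriptions of the merged set.

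Regions were called gained or lost when all 3 libraries of a group had a peak there and none of the 3 of the other group did. SMARCB1 against GFP in DMSO gave 78 gained regions in the window, 19.7%, where 11.3% of all merged regions of the genome and 12.4% of those on the rest of chromosome 8 were gained. It gave 1 lost region, where 0.323% of all regions were lost. In dBRD9-A, 65 regions (16.5%) were gained, against 10.6% of all regions, and 1 was lost, against 0.302%. The gained count in DMSO fell to 47 at equal background pileup, 26 with lists of equal length, 51 with presence by 50% cover and 48 with a −log10 q minimum of 5. Over the whole genome the same count fell from 21215 to 11958, 5585, 14312 and 12523. In dBRD9-A the gained count fell to 24 with lists of equal length, and over the genome from 19886 to 5544. When a peak in 2 of 3 libraries sufficed, against none of 3, there were 126 gained and 5 lost regions in DMSO. The genome then had 38868 and 2312. The lost count in DMSO was 7 with lists of equal length and 3 with presence by 50% cover. Over the genome the lost count was 3315 and 607 in these settings, against 605 in the main run.

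The lost regions, named after their values were seen, were weak. The region lost in DMSO (chr8:127624357-127624548, -1124 kb) had summit pileups of 13, 6 and 7 fragments in GFP DMSO and of 4 and 5 in replicates 1 and 3 of GFP dBRD9-A. The region lost in dBRD9-A (chr8:129944616-129944755, 1196 kb) had pileups of 4, 3 and 4 in GFP dBRD9-A, 8 and 3 in GFP DMSO replicates 2 and 3, and 2 in SMARCB1 DMSO replicate 1. No region of the window had a peak in all 6 GFP libraries and in no SMARCB1 library.

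A stratified exact permutation test of presence was run over the 88398 genomic regions with a peak in 2 to 10 libraries, 212 of them in the window. It called 51 window regions gained (24.1%, against 15.4% of all regions tested) and 0 lost (against 0.131%), each with a Benjamini-Hochberg adjusted p of 0.0321. Without adjustment, 84 of the 212 were gained and 1 was lost at the 0.05 threshold, against 22919 and 426 of the 88398. Only a full separation, with a peak in all 6 GFP libraries and no SMARCB1 library or the reverse, reached that adjusted p. Fisher's exact test also gave 51 gained. The calls fell to 31 at equal background pileup, and to 16 gained and 2 lost with lists of equal length. Over the genome the calls in either direction fell from 13750 to 6922 and 4642. With presence by 50% cover none remained past the threshold, the lowest adjusted exact permutation p being 0.0577. None remained either with same-numbered libraries taken as blocks, where 64 arrangements are possible (lowest adjusted exact permutation p 0.201). Over the genome, too, no region was called in either of these settings. The labels do not say whether a replicate number marks a shared batch. Each library correlated best with its own number in 36 of 36 comparisons, so the presence calls may hold only if such batches are ignored.

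The 51 regions were spread along the window, 23 before MYC and 28 after it. Their distance to the nearest region found in all 12 libraries ranged from 5.14 to 404 kb with a median of 92.8 kb, against a median of 47.9 kb for such regions genome-wide. Neighbouring gained regions lay a median of 25.5 kb apart. The bins from 252 to 502 kb and from 502 to 752 kb held 11 and 9 of them, and each of the outermost bins 1. Their median width was 295 bp, against 270 bp genome-wide. Their summit pileups in the SMARCB1 libraries ran from 2 to 60 fragments with a median of 11.

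Some of the gained regions ranked high by fold within their lists. The fold of a peak, its summit over the local background, is the authors' own value and was ranked within each list. The top region by mean fold percentile, at 97.1, was chr8:129313497-129313834 at 565 kb. Its summit pileups were 42, 25 and 32 fragments in SMARCB1 DMSO and 43, 23 and 27 in SMARCB1 dBRD9-A, with no peak in any GFP library. At 154 kb, chr8:128902317-128902528 had 30, 29 and 21 fragments in SMARCB1 DMSO and 41, 23 and 48 in SMARCB1 dBRD9-A (mean percentile 96.4). At 233 kb, chr8:128981640-128981893 had 31, 30 and 50, then 30, 21 and 60 (mean percentile 94.9). These regions lay after MYC, on the side where PVT1 is the next gene. Before MYC the leading gained region was chr8:128010989-128011315 at -737 kb, with 25, 29 and 24 fragments in SMARCB1 DMSO and 29, 15 and 33 in SMARCB1 dBRD9-A (mean percentile 93.8). The fifth by rank was chr8:129180077-129180415 at 432 kb, with 27, 35 and 39, then 37, 14 and 39 (mean percentile 91.8).

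The gained region nearest to MYC, named for its position, was chr8:128741164-128741434 at -6.88 kb. It was far weaker, with 6, 10 and 4 fragments in SMARCB1 DMSO and 6, 4 and 6 in SMARCB1 dBRD9-A. Over all 51 regions the median of the mean fold percentiles was 64.1, against 61.8 for such regions genome-wide. So by fold the gained regions around MYC ranged widely, from a mean percentile of 17.9 to 97.1, centred close to gained regions elsewhere.

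At the MYC promoter every library of every group had peaks. Within 5 kb of the gene, 4 regions were found in all 12 libraries: at -1.74 kb, at -0.677 kb, over the start itself and at 6.96 kb, past the 3′ end of the gene. To compare heights, each summit pileup was divided by the library's geometric mean over the 18114 regions found in all 12 lists and returned to a common scale of fragments. Changes were fitted with limma on log2 of these scaled pileups, with Benjamini-Hochberg adjustment over the 18114 regions.

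**Figure D4:**
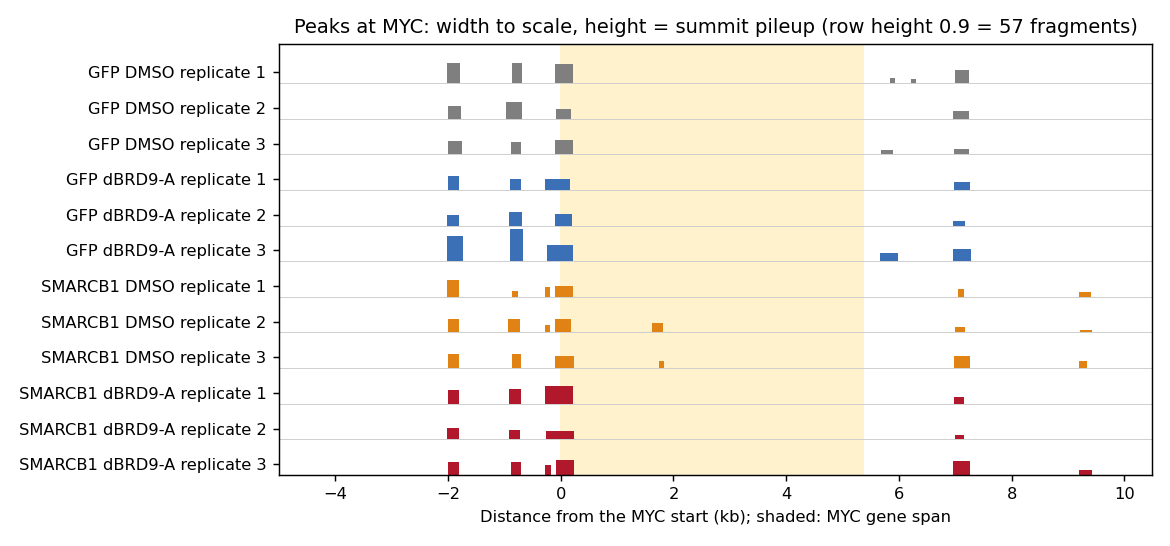
Peaks within 5 kb of the MYC gene (x axis, kb from its start; shaded, gene span) in each library (rows). Bar width is peak width and bar height the summit pileup in fragments, on 1 scale for all rows; the regions at -1.74, -0.677, 0 and 6.96 kb have a bar in all 12 rows.

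The region over the start (chr8:128748037-128748547) had summit pileups of 34, 18 and 25 fragments in GFP DMSO and 19, 20 and 28 in GFP dBRD9-A. It had 20, 23 and 21 in SMARCB1 DMSO and 31, 15 and 26 in SMARCB1 dBRD9-A. The ranges overlapped throughout. Scaled, the means were 24.4 ± 3.59 in GFP and 21.4 ± 2.13 in SMARCB1 libraries (SD, n = 6 each). The log2 change with SMARCB1 was -0.18 ± 0.15 (SE), with an adjusted p of 0.495 in limma. With dBRD9-A it was -0.02, with an adjusted p of 0.996. The first of these depended on how height was measured. Scaled to background pileup it was -0.77 with an adjusted limma p of 0.000545, a scaling under which the median of all shared regions moved from -0.06 to -0.65. With the summits in the region summed it was 0.20 with an adjusted limma p of 0.507. MYC is known to be transcribed from a pair of main promoters near its first exon. The highest summit lay 102 to 147 bp after the start in 8 libraries, 4 of each induction. It lay 32 to 48 bp before the start in the other 4, 2 of each induction. A separate second peak, 226 to 268 bp before the start with 13 to 18 fragments, was called in 3 libraries, all of them SMARCB1 libraries. In 4 others, replicates 1 and 3 of GFP dBRD9-A and 1 and 2 of SMARCB1 dBRD9-A, a single wide peak reached over the same stretch, so cover there was not limited to SMARCB1 cells.

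The neighbouring region at -0.677 kb (chr8:128747352-128747638) was lower after SMARCB1 induction. Its pileups were 35, 30 and 22 fragments in GFP DMSO and 19, 25 and 57 in GFP dBRD9-A. They were 11, 23 and 24 in SMARCB1 DMSO and 26, 17 and 22 in SMARCB1 dBRD9-A. Scaled, the GFP libraries lay between 25 and 41.3 and the SMARCB1 libraries between 11.3 and 22.8, without overlap. The log2 change was -0.67 ± 0.17 (SE), with an adjusted p of 0.00582 in limma. It was -0.73 within DMSO and -0.61 within dBRD9-A, and -1.26 over both under scaling to background pileup. With dBRD9-A against DMSO the same region changed by 0.16 on the log2 scale, with an adjusted limma p of 0.951.

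The regions on the outer sides of this pair did not pass the test. At -1.74 kb (chr8:128746297-128746577) the pileups were 36, 23 and 24 in GFP DMSO and 24, 18 and 45 in GFP dBRD9-A. They were 29, 24 and 24 in SMARCB1 DMSO and 24, 20 and 22 in SMARCB1 dBRD9-A. Scaled means were 28.2 ± 3.95 and 23.2 ± 4.17 (SD, n = 6 each) in GFP and SMARCB1 libraries, a log2 change of -0.29 ± 0.15 (SE; adjusted limma p 0.228). At 6.96 kb (chr8:128755274-128755589) the scaled means were 15.2 ± 3.03 and 13.5 ± 5.71 (SD, n = 6 each), a log2 change of -0.25 ± 0.24 (SE; adjusted limma p 0.548). Under scaling to background pileup these changes were -0.88 and -0.84, with adjusted limma p of 0.000186 and 0.00225. The inductions overlapped at both.

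Inside the gene body, 1 region was found, at 1.62 kb (chr8:128749934-128750146). It had a peak in SMARCB1 DMSO replicates 2 and 3 only, with 16 and 12 fragments. Past the gene, chr8:128753989-128754307 at 5.67 kb had peaks in GFP libraries only, with 10 and 7 fragments in GFP DMSO replicates 1 and 3 and 15 in GFP dBRD9-A replicate 3. A single-library region at 6.22 kb had 7 fragments in GFP DMSO replicate 1. At 9.19 kb, chr8:128757504-128757744 had 8, 5 and 12 fragments in SMARCB1 DMSO and 8 in SMARCB1 dBRD9-A replicate 3. With peaks in 1 to 4 libraries, these regions could not reach the adjusted threshold of the presence test, and their presence is given as a description.

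Of the 24 window regions found in all 12 libraries, 7 were higher after SMARCB1 induction (29.2%, against 8.07% of the 18114) and 5 were lower (20.8%, against 4.75%). Their median log2 change was -0.14, against -0.06 over the 18114. Under scaling to background pileup, 5 were higher and 15 lower, where 12861 of the 18114 were called in either direction. All of these regions had to carry a peak in every library, so regions gained or lost outright are not among them.

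The strongest rises were at regions after MYC. At 97.0 kb, chr8:128845318-128845631 had 7, 3 and 6 fragments in GFP DMSO and 3, 4 and 11 in GFP dBRD9-A. It had 32, 30 and 34 in SMARCB1 DMSO and 28, 18 and 39 in SMARCB1 dBRD9-A. Every SMARCB1 library was above every GFP library. Scaled, it went from 5.47 ± 1.80 to 28.7 ± 4.64 (SD, n = 6 each), 5.42-fold, a log2 change of 2.44 ± 0.23 (SE; adjusted limma p 4.79e-10). At 373 kb, chr8:129121161-129121648 had 23, 9 and 14 fragments in GFP DMSO and 10, 4 and 9 in GFP dBRD9-A. It had 48, 52 and 62 in SMARCB1 DMSO and 56, 34 and 65 in SMARCB1 dBRD9-A, again without overlap. This was a 4.79-fold difference on the scaled values, log2 2.26 ± 0.20 (SE; adjusted limma p 1.33e-10), and the region was the fourth highest of the 24 by mean scaled pileup.

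Another region after MYC, at 73.6 kb (chr8:128821896-128822850), was 2.15-fold higher, from 20.9 ± 6.13 to 43.9 ± 5.83 scaled fragments (SD, n = 6 each; adjusted limma p 7.77e-07). Before MYC, 1 shared region was higher, chr8:127640814-127641249 at -1107 kb. It rose 3.71-fold, from 7.84 ± 2.17 to 28.5 ± 4.82 (SD, n = 6 each; adjusted limma p 9.53e-09). Near the far end, chr8:129895455-129895821 at 1147 kb rose 2.44-fold (adjusted limma p 0.000112). These 5 were higher under scaling to background pileup too, by 0.52 to 1.85 on the log2 scale. The last pair of risers, at 1236 and 1239 kb, changed by 0.68 and 0.71, and by 0.09 and 0.12 under that scaling, where limma's adjusted p was 0.646 and 0.525.

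Under the main scaling, each called fall was smaller than the 5 rises named with a fold. At -1226 kb, chr8:127522647-127522812 had 48, 34 and 29 fragments in GFP DMSO and 31, 37 and 52 in GFP dBRD9-A. It had 19, 25 and 17 in SMARCB1 DMSO and 25, 17 and 19 in SMARCB1 dBRD9-A. Scaled, it went from 39.0 ± 3.36 to 19.6 ± 3.03 (SD, n = 6 each), a log2 change of -1.01 ± 0.14 (SE; adjusted limma p 1.47e-06), without overlap. Regions at 1123 and 1125 kb each fell by 0.81 on the log2 scale, with adjusted limma p of 0.00741 and 0.00407. The region at -0.677 kb, described above, came next. The smallest called fall was -0.56 at -1184 kb (chr8:127563766-127564344; adjusted limma p 0.0335), which was no longer past the threshold when any of 6 single libraries was left out. Under scaling to background pileup these 5 falls ran from -1.60 to -1.15, against 0.52 to 1.85 for the 5 rises.

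**Figure D5:**
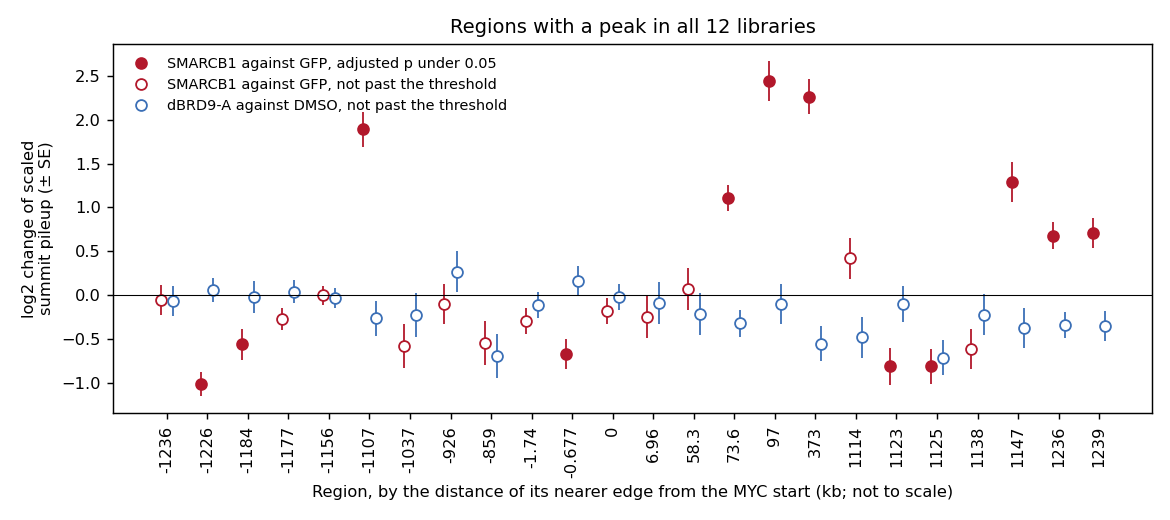
Log2 change of scaled summit pileup (y axis, points; whiskers, SE) in the 24 regions found in all 12 libraries, ordered by position (x axis labels, kb from the MYC start). Filled points passed an adjusted p of 0.05 in limma: for SMARCB1 against GFP, 7 above and 5 below 0, and none for dBRD9-A against DMSO.

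The tallest region of the window, at -1156 kb (chr8:127592005-127592569), was steady under the main scaling. Its pileups were 83, 51 and 42 fragments in GFP DMSO, 45, 45 and 67 in GFP dBRD9-A, 57, 54 and 59 in SMARCB1 DMSO, and 72, 39 and 73 in SMARCB1 dBRD9-A. Scaled, the means were 55.9 ± 5.54 and 56.0 ± 4.54 (SD, n = 6 each) in GFP and SMARCB1 libraries. The log2 change was 0.00 ± 0.11 (SE; adjusted limma p 0.990), and -0.59 under scaling to background pileup (adjusted limma p 0.00129). A further tall region, at -1177 kb (chr8:127570521-127570911), changed by -0.27 (adjusted limma p 0.177), and by -0.86 under that scaling (adjusted limma p 8.34e-05). The median of all shared regions under that scaling was -0.65.

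As a description over 12 libraries, the scaled height of the region over the MYC start varied most like that of the region at -1184 kb (Pearson r 0.71), then those at -1177 kb (0.58) and 1123 kb (0.46). The regions compared share libraries, depth and scaling. The correlations with the other shared regions ran from -0.46 to 0.43.

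Few regions around MYC changed with dBRD9-A. Against DMSO in GFP cells, no region of the window was gained (0.135% of all regions were) and 1 was lost (0.121% of all). The lost region, chr8:127623344-127623693 at -1125 kb, had 11, 9 and 4 fragments in GFP DMSO, and also 3 in SMARCB1 DMSO replicate 2. In SMARCB1 cells, 1 region was gained (0.266% of all) and none was lost (0.238% of all). The gained region, chr8:129696394-129696588 at 948 kb, had 6, 5 and 5 fragments in SMARCB1 dBRD9-A and no peak in any other library. The exact permutation test of presence called 0 window regions for dBRD9-A, as it called 0 of all 88398 (0%). At an unadjusted p under 0.05 it counted 0 in the window.

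By height, 0 of the 24 shared regions were called in limma for dBRD9-A, against 0.00552% higher and 0.0166% lower over the 18114. At an unadjusted limma p under 0.05 there were 7 of the 24, a larger share than the 6.41% of the 18114. The lowest adjusted limma p was 0.306, for the region at 1125 kb. Of the 24, 20 had a log2 change below 0, with a median of -0.16, against 0.00 over the 18114. The interaction of induction with treatment was called at 0 of the 24 regions, against 0.00552% of the 18114.

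The number of peaks in the window differed by -7 between dBRD9-A and DMSO libraries (exact permutation p 0.555, adjusted p 0.921). Without SMARCB1 dBRD9-A replicate 2, the SMARCB1 library of lowest depth, it was 1.58. The interaction, the treatment difference under SMARCB1 less that under GFP, was -4.67 peaks (adjusted exact permutation p 0.945). The share of the list in the window was 0.137% ± 0.0136 in GFP DMSO and 0.120% ± 0.00629 in GFP dBRD9-A (SD, n = 3 each). It was 0.229% ± 0.00722 in SMARCB1 DMSO and 0.214% ± 0.00571 in SMARCB1 dBRD9-A (SD, n = 3 each). The treatments overlapped in GFP cells and did not in SMARCB1 cells. Over both inductions the share differed by -0.0156 percentage points, dBRD9-A less DMSO (exact permutation p 0.01, adjusted p 0.027). That call did not hold with lists of equal length (-0.0175, exact permutation p 0.09), at equal background pileup (-0.0105, p 0.16) or for 1 Mb to either side of the MYC start (-0.00698, p 0.18). Per 100 peaks on the rest of chromosome 8, the window held 3.13 ± 0.263 in GFP DMSO, 2.74 ± 0.178 in GFP dBRD9-A, 4.68 ± 0.130 in SMARCB1 DMSO and 4.34 ± 0.111 in SMARCB1 dBRD9-A (SD, n = 3 each). The difference with dBRD9-A was -0.363 (exact permutation p 0.01, adjusted p 0.027), and it rests on the same window peaks as the share.

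Most regions gained with SMARCB1 in DMSO were also found with SMARCB1 in dBRD9-A. Of the 78 gained in DMSO, 76 (97.4%, against 91.4% genome-wide) were present in 2 or 3 SMARCB1 dBRD9-A libraries, and none was absent from all 3. Replicates 1, 2 and 3 of SMARCB1 dBRD9-A had a peak in 73, 64 and 72 of them. The 51 regions gained under both treatments were 65.4% of those gained in DMSO and 78.5% of those gained in dBRD9-A, against 64.3% and 68.6% genome-wide.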

How the data were processed

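The data were 12 lists of ATAC-seq peaks from nucleosome-free fragments, 1 per library, per the labels. The submitters' processing notes name BWA 0.7.12-r1039, SAMtools 1.2, bedtools 2.24.0, MACS2 2.1.1.20160309, DiffBind and DESeq2 and the build hg19, with no role or settings; the filter marked in the list names is not given in the sources used here. The deposited lists give each peak's fold enrichment (a ratio) and the −log10 of its p and q, all computed by the authors' peak caller; the lowest −log10 q was 1.30. Solving fold and −log10 p together returned the summit pileup and local background for 100% of 742200 peaks, within a tolerance of 0.001. Per-library values were tested by two-sided exact permutation within strata (400 arrangements). Of the per-library measures, only peak number and share in the window were planned, and the others were added later to the same family of tests. Heights were fitted with limma 3.58.1 with a mean-variance trend. Within 1 treatment, 3 against 3 libraries cannot give a p below 0.1. Scripts were tested on simulated data.

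The window, the named regions and the tests were chosen with earlier results of these data known. Regions named were those within 5 kb of MYC, the 5 highest gained ones by fold percentile, shared regions passing the height test (up to 5 per direction), the 5 tallest, the 3 most like the start region, and those changed with dBRD9-A. Alternatives were a −log10 q of at least 5, equal list length, equal background pileup, 50% cover, 2 of 3 against 0 of 3, summit windows, a 1 Mb window, a replicate block, Fisher's exact test, other height scalings and each library left out. No sequence was printed, and reads were not analysed here.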

Additional observations from a re-analysis of the deposited data

How the results depend on the processing

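The SMARCB1 difference in peak number and in share stayed positive in every alternative run that gave it, with 33.8 to 147 more peaks. The exact permutation p, before adjustment, was below 0.05 in each. With the replicate block this unadjusted p was 0.0312 for both measures. Whether the adjusted call holds under the block was not tested. Equal list length gave 26 gained and 7 lost regions in DMSO, 24 and 3 in dBRD9-A, 2 changed with dBRD9-A in GFP and 2 in SMARCB1 cells, 18 presence calls, a share difference with dBRD9-A of -0.0175 and an interaction in peak number of 1. Equal background pileup gave 47 gained and 2 lost in DMSO, 2 changed in GFP cells, 31 presence calls, -0.0105 and 3.33. A −log10 q of at least 5 gave 48 gained in DMSO, and 0 and 2 changed with dBRD9-A in GFP and SMARCB1 cells; summit windows gave 0 in GFP cells. Presence by 50% cover gave 51 gained and 3 lost in DMSO, 2 lost in dBRD9-A and 0 presence calls. The rule of 2 of 3 against 0 of 3 gave 126 gained and 5 lost in DMSO, 114 and 3 in dBRD9-A, and 7 and 17 changed with dBRD9-A in GFP and SMARCB1 cells. Over the genome that rule gave 38868 and 2312, 38661 and 2379, and 3354 and 8206. Genome counts changed with dBRD9-A in GFP and SMARCB1 cells were 479 and 944 in the main run. They were 535 and 311 with lists of equal length, and 343 and 473 with a −log10 q of at least 5. In GFP cells they were 585 at equal background pileup and 503 with summit windows. The 1 Mb window gave a share difference with dBRD9-A of -0.00698. Fewer regions or peaks entered some of these alternatives. Why the values moved was not tested.

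Scaling to background pileup called 20 shared regions by height, and gave -0.77 at the MYC start and -0.59 at -1156 kb. Summed summits gave 0.20 at the MYC start. With a library left out, lost regions numbered 1 to 3 in DMSO and 1 to 2 in dBRD9-A, and regions changed with dBRD9-A 1 to 4 in GFP and 2 to 7 in SMARCB1 cells. Over the genome these ran from 761 to 1381, 763 to 1535, 1173 to 1415 and 2565 to 3240. The peak difference with dBRD9-A ran from -14.4 to 1.58 and the interaction from -19.5 to 12.5. The log2 change at the MYC start with dBRD9-A ran from -0.08 to 0.05, and at -1156 kb with SMARCB1 from -0.04 to 0.04. Of 336 such values, 298 kept direction and side of the threshold or, for counts, stayed within 1.5 times; of 176 others, 138 did.

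Replicate numbers were not taken as pairing, since the labels do not say that a number marks a shared batch. Same-numbered pairs correlated at 0.0482 to 0.227, 10 of 18 above 0.1, and other pairs at -0.171 to 0.0165. Each library correlated best with its own number in 36 of 36 comparisons, and the numeric IDs in the titles run on within a number. The numbers may therefore mark shared batches, and the presence calls depend on leaving them out. With the replicate block the presence calls went from 51 to 0 (lowest adjusted exact permutation p 0.201), where 64 arrangements are possible. Counts by height stayed at 12 under the block. Depth limits weak regions most: pileups of 2 to 5 fragments sit near the calling threshold of the shallow libraries.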
